A study of Mus musculus with 90 samples.

Results

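Tumours of mice given a control antibody were compared with tumours of mice given saline, the 2 control arms of a melanoma study of PD-L1 blockade. The arrays were chosen by their treatment label. There were 22 arrays labelled Normal IgG, at 10 mg/kg, and 7 labelled PBS, at 10 ml/kg, out of 90 arrays in all. One PBS array was left out for its actin control, as described below, so 28 arrays were compared. All carried Melanoma as the disease, the genotype Hgftg;Cdk4R24C/R24C and the strain B6.cBrd, and all were subcutaneous tumours. They came from an allograft model and were taken at more than one time, which the array labels do not give. The control antibody was NIP228, a mouse IgG1 whose Fc part carries the change D265A, given in PBS. Age and sex were not in the labels used here.

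An isotype control antibody has no intended target in the tumour, and its constant part is what it shares with the therapeutic antibody. Fc gamma receptors on macrophages, neutrophils and natural killer cells bind the Fc part of IgG, and the D265A change is known to weaken that binding. The neonatal receptor FcRn takes IgG up and returns it to the blood. Interferon gamma, made by T cells and natural killer cells, raises chemokines such as Cxcl9 and the genes that load peptides on class I molecules.

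The titles of the arrays are numbers that fell into 3 ranges by their first digits, and these did not match between the arms. One range held arrays of both arms, 14 IgG and 3 PBS, and is called the shared range. The other 8 IgG arrays lay in an IgG-only range. The other PBS arrays lay in a PBS-only range, of which 3 were kept after 1 was left out. The pooled comparison was therefore repeated within the shared range. Nothing in the labels used here says what the ranges stand for, and the labels do not say that each array is a separate mouse. The p-values therefore measure the spread between these samples, which may be technical in part.

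Values are log2 intensities, and a difference of 1 is a doubling. The left-out PBS array had a 3' minus 5' actin difference of 6.09, a sign of RNA shortened from its 5' end, while the other 28 lay between -0.02 and 0.92. The 28 arrays had median values of 5.77 to 5.86. Melanocyte markers were high in both arms: Pmel, a pigment fibre protein, was at 11.89 ± 0.37 (SD, n = 22) with IgG and 11.90 ± 0.43 (SD, n = 6) with PBS, and Dct, a melanin enzyme, was at 14.20 ± 0.08 and 14.14 ± 0.11. Tyr, the first enzyme of melanin synthesis, was near the low end, at 3.63 ± 0.18 and 3.62 ± 0.18.

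Few genes separated the arms. In limma with Benjamini-Hochberg adjustment, 1 of 18193 genes passed an adjusted p of 0.05 in the pooled comparison, which is 0.0055%, and it was lower with IgG. At an unadjusted p under 0.05 the count was 1993, or 11% of genes, with 734 higher and 1259 lower with IgG. Within the shared range no gene passed, which is 0%. There 453 genes, or 2.49%, had an unadjusted p under 0.05, with 1.18% higher and 1.31% lower, and the smallest adjusted p was 0.999. The 95% interval of the pooled difference lay within 1 log2 unit of 0 for 97.2% of genes, and for 95.6% within the shared range. It lay within 0.5 log2 units of 0 for 77% and 72% of genes. Only 5 genes in the pooled comparison and 25 within the shared range had an estimate past 1 log2 unit.

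The gene that passed was Gm4876, a long noncoding RNA gene on mouse chromosome 6 that overlaps Tes in the RefSeq annotation of GRCm38.p6. It lies outside the rule by which genes were named and is given because it was the only one. With PBS its values were 5.93, 6.22 and 6.23 in the shared range and 6.29, 6.53 and 6.58 in the PBS-only range. With IgG they ran from 5.37 over a median of 5.71 to 6.10. The PBS arrays were higher, and the arms overlapped when pooled. Within the shared range the highest IgG array, at 5.92, lay just under the lowest PBS array, as for 0.126% of all genes. The pooled difference was -0.56 ± 0.09 (SE), a ratio of 0.681, with an adjusted p of 0.0156 in limma. The shared range alone gave -0.44 ± 0.09 (SE, adjusted p = 0.999). A second probe set of the gene differed by -0.90 in the pooled comparison and -0.49 within the shared range.

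The call on Gm4876 was lost without any of 3 PBS arrays, while the difference stayed close to its pooled size. It was -0.57 without PBS replicate 3 (adjusted p = 0.0535 in limma), -0.51 without replicate 6 (adjusted p = 0.184) and -0.50 without replicate 7 (adjusted p = 0.195). The call also ended with quantile normalization, at a difference of -0.56 (adjusted p = 0.0825), and with the title range as a fixed block, at -0.44 (adjusted p = 0.997). The fixed block takes its difference from the shared range alone, the only range with both arms, so it repeats that result. The mean of its probe sets (-0.73, adjusted p = 0.136) and a fit of the arrays of all groups (-0.56, adjusted p = 0.157) ended it too. With the actin difference as a covariate Gm4876 differed by -0.48 (adjusted p = 0.0622), and with the Xist level by -0.40 (adjusted p = 0.617). Of the genes near Gm4876 on chromosome 6, Tes, a protein of cell contacts, differed by -0.10, and Cav2, a caveola protein, by -0.35. Cav1, the main caveola protein, differed by 0.05, and Met, the receptor of the hepatocyte growth factor that this model overproduces, by 0.10. None of these passed.

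The genes with the smallest p below Gm4876 missed the threshold in both directions. Smarca2, an ATPase of the SWI/SNF chromatin remodelling complex, had PBS values of 7.87, 7.90 and 7.77 in the shared range and 7.66, 8.14 and 8.12 in the PBS-only range. Its IgG values ran from 7.31 over 7.55 to 7.77. The arms overlapped at the lowest PBS arrays, replicates 3 and 4. The pooled difference was -0.35 ± 0.07 (SE, adjusted p = 0.129 in limma), and the one within the shared range was -0.29. Its other probe set differed by 0.19, in the opposite direction.

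Nsun3, a mitochondrial RNA methyltransferase, had PBS values of 7.55, 7.56 and 7.42 in the shared range and 7.50, 7.76 and 7.90 in the PBS-only range. With IgG it ran from 6.70 over 7.16 to 7.56. All 14 IgG arrays of the shared range, at most 7.30, lay below the 3 PBS arrays of that range, whereas IgG arrays of the IgG-only range overlapped them. The pooled difference was -0.47 ± 0.10 (SE, adjusted p = 0.288) and the one within the shared range was -0.46 ± 0.11. The other 3 probe sets of Nsun3 differed by 0.02, -0.09 and -0.03. Across all genes, 23 higher and 23 lower had no overlap between the arms within the shared range, 0.126% each way, and none had none in the pooled comparison.

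Other genes on the lower side missed it too. Cox20, an assembly factor of cytochrome c oxidase, differed by -0.29 ± 0.07 (SE), and both of its probe sets were lower. Oxsm, an enzyme of mitochondrial fatty acid synthesis, differed by -0.46 ± 0.11, with its other 4 probe sets between -0.13 and 0.02. Atl1, a GTPase that shapes the endoplasmic reticulum, differed by -0.50 ± 0.12, and its second probe set by -0.38. Zswim7, a recombination factor, differed by -0.48, Zfp383, a zinc finger protein, by -0.45, Sft2d3, a vesicle transport protein, by -0.30, and Accs by -0.27. The second probe set of Zfp383 differed by -0.18. Within the shared range Cox20 differed by -0.25, Oxsm by -0.39, Atl1 by -0.33 and Zswim7 by -0.40. Zfp383 differed there by -0.40, Sft2d3 by -0.245 and Accs by -0.15. The pooled adjusted p of these 7 genes lay between 0.359 and 0.436.

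On the higher side, Nr4a2, an orphan nuclear receptor induced by many signals, had PBS values of 8.05, 7.51 and 7.85 in the shared range and 7.99, 7.92 and 7.60 in the PBS-only range. With IgG it ran from 8.01 over 8.31 to 9.03. The arms overlapped only at PBS replicate 1. The pooled difference was 0.61 ± 0.14 (SE, adjusted p = 0.359) and the one within the shared range was 0.48 ± 0.15 (SE, adjusted p = 0.999). Of its 5 other probe sets, 3 differed by 0.21 to 0.46 and 2 by -0.06 and -0.17.

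Fosl2, a partner of Jun proteins in AP-1, had PBS values of 7.17, 7.73 and 7.74 in the shared range and 6.93, 7.08 and 7.39 in the PBS-only range. With IgG it ran from 7.22 over 8.01 to 8.72. The lowest values were in PBS arrays of the PBS-only range, and the arms overlapped. The pooled difference was 0.68 ± 0.16 (SE, adjusted p = 0.387) and the one within the shared range was 0.42. The second probe set differed by 0.09 pooled. Ctla4, an inhibitory receptor of T cells, differed by 0.53 ± 0.14 and Ddr2, a collagen receptor, by 0.57 ± 0.15. Pcgf5, a Polycomb protein, differed by 0.45, Rab20, a vesicle GTPase, by 0.49 and Osgin1, an oxidative stress gene, by 0.34. Resf1 differed by 0.33, with 4 probe sets between 0.33 and 0.54, and Flrt1, an adhesion protein, by 0.23. Other probe sets differed by 0.02 for Flrt1, by 0.15 and -0.09 for Pcgf5, and by 0.21 for Ddr2. Within the shared range Ctla4 differed by 0.34, Ddr2 by 0.29, Pcgf5 by 0.36 and Rab20 by 0.17. Osgin1 differed there by 0.30, Resf1 by 0.20 and Flrt1 by 0.27. The pooled adjusted p of these 7 genes lay between 0.387 and 0.45.

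**Figure D1:**
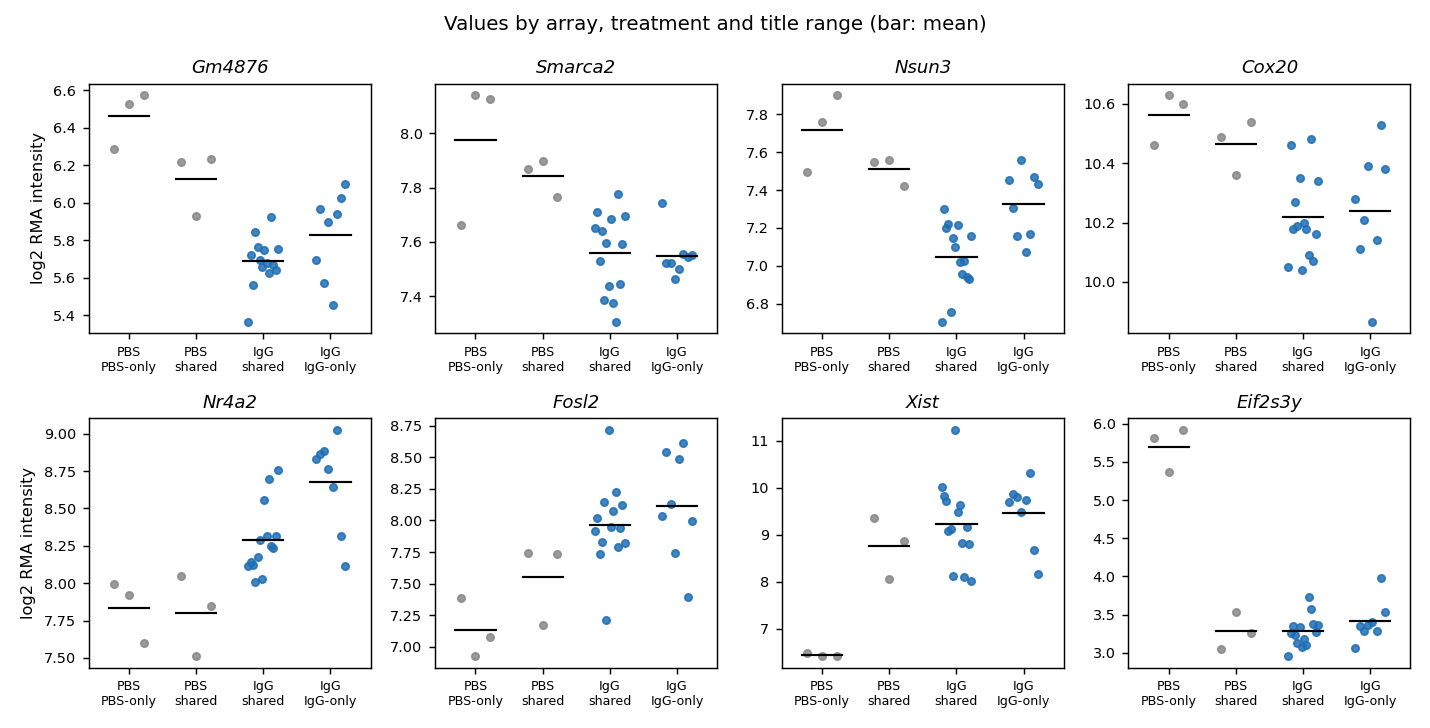
Log2 intensity (vertical axes) of 8 genes in each of the 28 arrays, with PBS in grey and IgG in blue, split by the title range, and bars at the means. Gm4876 was higher in the PBS arrays of both ranges, while Xist and Eif2s3y stood apart in the 3 PBS arrays of the PBS-only range only.

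Xist and Eif2s3y, also among the genes with the smallest p, separated title ranges and not treatments. Xist, the RNA that silences an X chromosome in female cells, was at 6.41, 6.42 and 6.49 in the PBS arrays of the PBS-only range. It was at 8.07, 8.87 and 9.37 in the PBS arrays of the shared range, and between 8.02 and 11.24 in all 22 IgG arrays. Eif2s3y, a Y-linked translation factor, was at 5.36, 5.82 and 5.92 in the PBS-only range, at 3.05 to 3.53 in the PBS arrays of the shared range, and at 2.95 to 3.98 with IgG. No other of the 28 arrays came near these 3 in either gene. The left-out PBS array, of the same range, was at 6.87 for Xist and 4.78 for Eif2s3y. The pooled difference was 1.71 ± 0.41 (SE) for Xist and -1.16 ± 0.27 for Eif2s3y. Within the shared range the differences were 0.46 ± 0.49 and 0.00 ± 0.13. In the pooled comparison, treatment and whatever these 2 genes mark in the PBS-only range cannot be told apart in full.

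The ranges differed within 1 treatment as well. Between the IgG arrays of the IgG-only and shared ranges, 2915 genes passed an adjusted p of 0.05 in limma, 16% of those tested, with 1155 (6.35%) higher and 1760 (9.67%) lower in the IgG-only range. Fkbp8, an inhibitor of cell death at mitochondria, ran from 9.81 to 10.06 in the IgG-only range. In the shared range it ran from 10.47 to 11.03. Ptgir, the prostacyclin receptor, was at 7.56 to 8.73 against 5.53 to 6.84. Both were chosen after their values were seen, and genes without overlap in this comparison were not counted. Between the PBS arrays of the PBS-only and shared ranges no gene passed, 0%, and 1900 (10.4%) had an unadjusted p under 0.05; there were 3 arrays on each side.

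The IgG arrays of the IgG-only range were also set against the PBS arrays of the PBS-only range, where treatment and title range cannot be told apart. There 5 genes passed, 0.0275% of those tested. Xist and Thbs3, a matrix protein, were higher in the IgG arrays (2 genes, 0.011%), and Eif2s3y, Dleu7 and Cdh10, a cadherin, were lower (3 genes, 0.0165%). Thbs3 was at 4.91, 5.29 and 5.31 in the PBS-only range and at 5.97 to 6.63 in the IgG-only range. In the shared range it was at 5.91 to 6.83 with PBS and 5.69 to 7.67 with IgG, where the arms overlapped. Its difference was 1.17 in the first comparison and 0.11 in the second. The difference between the 2 comparisons was tested for every gene in limma, and it passed for 3 genes (0.0165%), Eif2s3y, Dleu7 and Arfgef3.

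The Fc receptors, which could bind the injected antibody, showed no difference past the threshold. Fcgr1, the high-affinity receptor, ran from 8.13 over 9.22 to 11.21 with IgG and from 8.43 over 9.09 to 9.70 with PBS. The PBS arrays lay inside the IgG range. Its pooled difference was 0.14, with a 95% interval from -0.41 to 0.69. Fcgr4, an activating receptor, differed by 0.18 (-0.50 to 0.86), and Fcgr3, another, by -0.24 (-0.75 to 0.28). Fcgr2b, the inhibitory receptor, differed by 0.06 (-0.36 to 0.49). Fcer1g, the signalling chain of the activating receptors, differed by 0.02 (-0.48 to 0.52), and Fcgrt, the heavy chain of FcRn, by -0.06 (-0.48 to 0.36). Over the 8 genes of the list the median difference was 0.07 pooled and -0.08 within the shared range, beside -0.01 and 0.01 over all genes. None of the 8 had an unadjusted p under 0.05 in either comparison. The interval of Fcgr4 still allows a rise of 0.86 log2 units pooled, and within the shared range it ran from -1.14 to 0.996.

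The PD-1 axis and the drivers of the model also differed by less than the test could call. Cd274, which encodes PD-L1, ran from 7.96 over 8.32 to 9.12 with IgG and from 7.91 over 8.19 to 8.45 with PBS, so the arms overlapped. Its pooled difference was 0.17, with a 95% interval from -0.07 to 0.41, and it turned to -0.0412 with the Xist level as a covariate. Pdcd1, which encodes PD-1, differed by 0.28 (-0.07 to 0.64), and Pdcd1lg2, its second ligand, by 0.15 (-0.15 to 0.45). Hgf, the transgene's growth factor, differed by 0.22 (-0.17 to 0.61), and Met by 0.10 (-0.13 to 0.32). Cdk4, the cell cycle kinase mutated in this model, differed by -0.13 (-0.29 to 0.02). Within the shared range its 3 PBS arrays, from 11.66 to 11.71, lay just above the highest IgG array, at 11.65. Of all genes 0.126% were lower with IgG without overlap in that range. On the driver list of 8 genes, 1 was lower at an unadjusted p under 0.05 in limma within the shared range and 0 pooled. The shares over all genes were 1.31% and 6.92%.

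**Figure D2:**
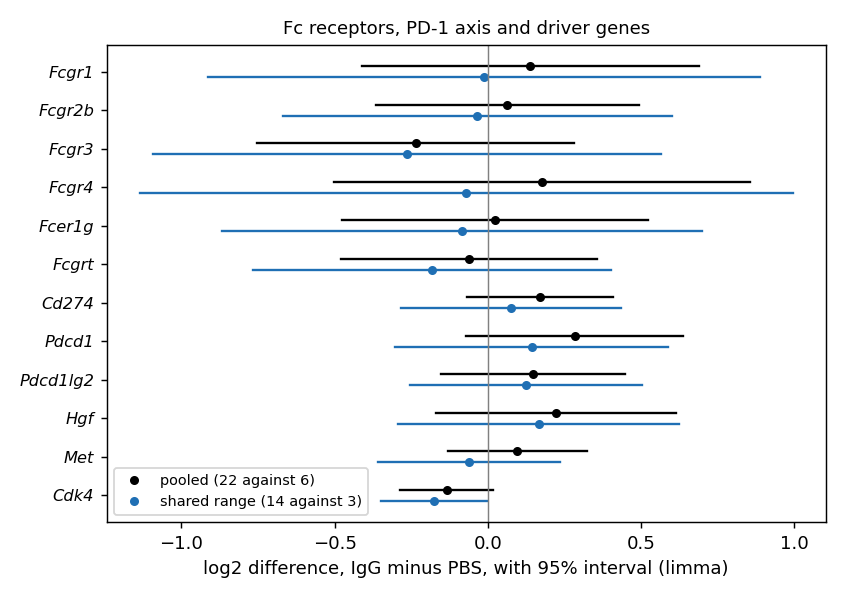
Log2 difference, IgG minus PBS, with its 95% interval from limma (horizontal axis) for 6 Fc receptor genes, 3 PD-1 axis genes and 3 driver genes, pooled in black and within the shared range in blue. The pooled intervals of all 12 genes include 0.

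The other genes were read through 42 lists of pathways and cell types, of which 453 genes were measured. None of these 453 genes passed in the pooled comparison. In bulk tumours, fewer cells of a type and less RNA per cell cannot be told apart. Each list is given by the median of its members' differences and by how many had an unadjusted p under 0.05, a share that over all genes was 4.03% higher and 6.92% lower pooled, and 1.18% and 1.31% within the shared range.

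The largest positive medians in the pooled comparison were in the class II, interferon gamma and class I lists. Of 13 interferon gamma response genes, 7 were higher with IgG at an unadjusted p under 0.05 and the median difference was 0.44. In the shared range 0 of 13 were, with a median of 0.09. Between the IgG-only and PBS-only ranges 9 of 13 were, with a median of 0.94, beside 10.1% of all genes. Irgm1, an interferon-induced GTPase, was at 9.33, 9.36 and 9.61 in the PBS arrays of the PBS-only range and at 10.14, 10.61 and 10.85 in those of the shared range. With IgG it ran from 9.83 over 10.56 to 11.22. The 3 PBS arrays of the PBS-only range lay below every IgG array, a layout that was not counted over all genes. The PBS arrays of the shared range lay inside the IgG range of Irgm1. Its pooled difference was 0.60 ± 0.21 (SE, adjusted p = 0.45), and 0.09 ± 0.26 within the shared range.

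Cxcl9, a chemokine that draws T cells, had PBS values of 9.46, 9.83 and 10.57 in the shared range and 6.89, 8.39 and 8.93 in the PBS-only range. With IgG it ran from 7.89 over 10.31 to 11.63. The PBS arrays at 8.39 and 8.93 lay inside that span, as did those of the shared range. Cxcl9 differed by 1.12 ± 0.49 (SE) pooled and 0.04 ± 0.62 within the shared range. Irf8, a transcription factor of myeloid and B cells, differed by 0.92 pooled and 0.28 within the shared range, and Igtp, another induced GTPase, by 0.70 and 0.13.

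Of 13 type I interferon response genes 2 were higher pooled, with a median of 0.12, and 0 of 13 within the shared range, with a median of -0.07. Between the IgG-only and PBS-only ranges 7 of 13 were, with a median of 0.35.

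Class I presentation had a similar layout. Of its 12 genes, 7 were higher at an unadjusted p under 0.05 in the pooled comparison, with a median of 0.32, and 0 of 12 within the shared range, with a median of 0.03. Between the IgG-only and PBS-only ranges 9 of 12 were. Tap1, a peptide transporter, differed by 0.63 ± 0.25 pooled and 0.23 ± 0.30 within the shared range. H2-K1, a class I heavy chain, differed by 0.32 and 0.05, and Psmb8, a subunit of the immunoproteasome, by 0.33 and 0.01. Class II presentation had a median of 0.45 pooled and 0.02 within the shared range, with 0 of 8 genes at an unadjusted p under 0.05 in either and 6 of 8 higher between the IgG-only and PBS-only ranges. Cd74, the invariant chain, differed by 0.91 and 0.13. Averaged over the list, the class I genes were at 10.47 to 10.67 in the PBS arrays of the PBS-only range, 11.04 to 11.65 in those of the shared range, and 10.69 to 11.90 with IgG. The interferon gamma genes were at 8.27 to 8.94 in the PBS arrays of the PBS-only range and at 8.675 to 10.44 with IgG. The class II genes were at 8.43 to 8.85 and at 8.08 to 10.5. In both of these lists the PBS arrays of the PBS-only range overlapped the IgG arrays. The 3 PBS arrays of the PBS-only range also stood apart in Xist and Eif2s3y. The part of those differences in the list values was not tested.

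**Figure D3:**
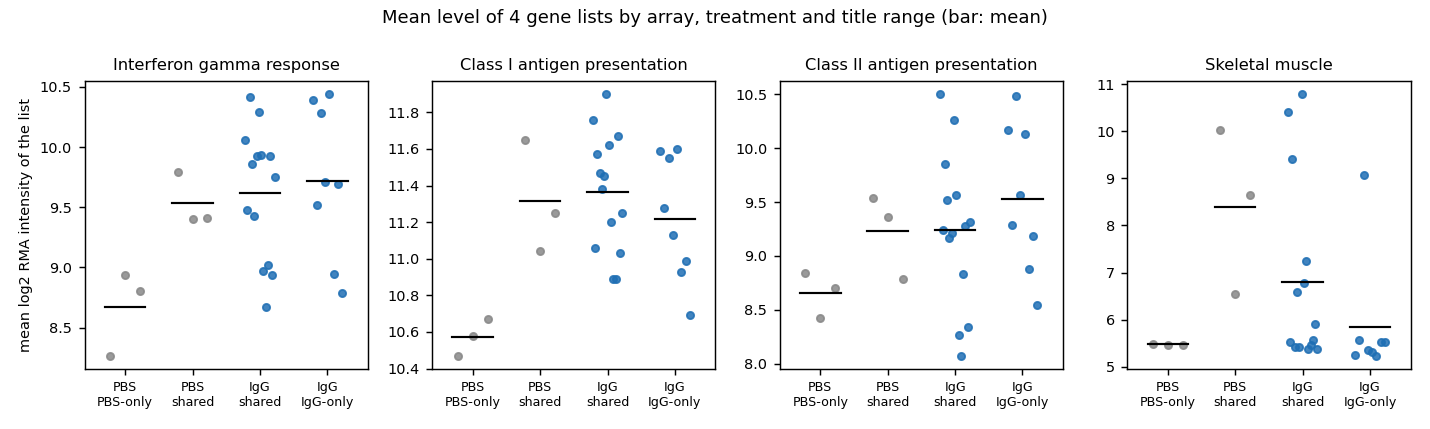
Mean log2 intensity over the genes of 4 lists (vertical axes) in each of the 28 arrays, with PBS in grey and IgG in blue, split by the title range, and bars at the means. In the interferon gamma, class I and class II lists the bar of the 3 PBS arrays of the PBS-only range was lowest. In the interferon gamma and class II lists these arrays overlapped the IgG arrays. Skeletal muscle genes were high in single arrays of both arms.

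The promoter of Irgm1 is shown because the gene's lowest values were in the PBS arrays of the PBS-only range. It holds the interferon-stimulated element core, GAAA repeated after any 2 bases, searched on both strands (TTTC on the other). The 250 bases before its start site are from RefSeq on GRCm38.p6, chr11:48871421-48871670, minus strand, with the 2 overlapping matches in capitals.
Irgm1: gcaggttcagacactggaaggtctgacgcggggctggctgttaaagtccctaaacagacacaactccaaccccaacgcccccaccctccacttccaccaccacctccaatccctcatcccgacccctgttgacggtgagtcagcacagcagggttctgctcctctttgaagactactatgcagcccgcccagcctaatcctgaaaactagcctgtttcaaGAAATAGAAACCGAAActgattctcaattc
Of the 13 interferon gamma genes 10 had a promoter entry, and 6 of these held the core. Of all 27025 genes with an entry 3.46% did, and of all 32851 promoters of this length 2.98%.

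T cell, complement and fibroblast lists had positive pooled medians. T cell receptor and costimulation genes had a median of 0.25 pooled and 0.10 within the shared range, with 2 of 14 higher at an unadjusted p under 0.05 pooled and 1 within the shared range. Icos, a costimulatory receptor, was at 5.96, 5.97 and 6.00 in the PBS arrays of the shared range and at 6.14 to 6.81 in their IgG arrays, with no overlap. Of all genes 0.126% were higher with IgG without overlap in that range. The difference of Icos was 0.34 ± 0.10 (SE) there and 0.30 ± 0.08 pooled (adjusted p = 0.45). Cytotoxic T and natural killer genes had medians of 0.24 pooled and 0.03 within the shared range. Complement genes had 0.21 and 0.03, and fibroblast and matrix genes 0.29 and 0.03. In that list order, the medians of IgG of the IgG-only range minus PBS of the PBS-only range were 0.45, 0.49 and 0.42. There 2 of 15, 4 of 11 and 0 of 18 genes were higher at an unadjusted p under 0.05. With PBS, the medians of the PBS-only minus the shared range were -0.43, -0.69 and -0.71. The interferon gamma and class I lists were at -0.78 and -0.69 there, and the T cell list at -0.27.

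Stress-response lists had positive medians in both comparisons. Of 16 immediate early genes, the first transcripts induced by growth signals, 3 were higher at an unadjusted p under 0.05 in the pooled comparison, and the median was 0.29, against 0 of 16 and 0.19 within the shared range. Nr4a1, a relative of Nr4a2, differed by 0.37 and 0.35. Of 10 heat shock genes 4 were higher pooled and 0 within the shared range, with medians of 0.28 and 0.13. Hspa1a, an inducible chaperone, ran from 5.79 over 6.98 to 8.99 with IgG and from 5.62 over 6.43 to 7.001 with PBS, so the arms overlapped. Its difference was 0.87 ± 0.38 (SE) pooled and 0.85 ± 0.50 within the shared range. Hsph1, a partner of that chaperone, differed by 0.42 and 0.26. Of 12 unfolded protein response genes 4 were higher pooled and 2 within the shared range, with medians of 0.11 and 0.18. Hyou1, a chaperone of the endoplasmic reticulum, differed by 0.43 and 0.32, Asns, which makes asparagine, by 0.34 and 0.28, and Atf4, the factor that induces it, by 0.20 and 0.22. None of these genes passed the adjusted threshold.

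The promoter of Nr4a2 is shown because that gene had the smallest p among those higher with IgG. The capitals mark the cAMP response half-site TGACG, or CGTCA on the other strand, in the 250 bases before its start, chr2:57124004-57124253, minus strand, on GRCm38.p6 from RefSeq.
Nr4a2: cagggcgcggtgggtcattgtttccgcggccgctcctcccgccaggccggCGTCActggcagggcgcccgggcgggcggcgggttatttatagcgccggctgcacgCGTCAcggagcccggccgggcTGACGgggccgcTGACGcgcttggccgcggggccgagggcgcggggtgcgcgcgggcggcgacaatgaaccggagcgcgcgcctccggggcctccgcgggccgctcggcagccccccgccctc
It held 4 matches, and 17.8% of all promoters of this length held at least 1. Of the 12 immediate early genes with a promoter entry 9 did, as did 19.8% of all genes with one. The heat shock element core, GAA and TTC with any 2 bases between, reads the same on both strands and was in 5 of 8 heat shock genes with an entry and in 7.73% of all genes with one (6.69% of all promoters).

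Metabolic lists had negative or mixed medians. Of 11 cholesterol synthesis genes 4 were lower with IgG at an unadjusted p under 0.05, with a median of -0.29 pooled and -0.20 within the shared range, where 0 of 11 were. Sc5d, which acts late in the pathway, ran from 7.99 over 8.61 to 8.96 with IgG and from 8.09 over 9.15 to 9.46 with PBS. The arms overlapped. The pooled difference of Sc5d was -0.45 ± 0.14 (SE, adjusted p = 0.45). Idi1 and Sqle, earlier enzymes, differed by -0.51 and -0.30. With IgG, the list's median difference of the IgG-only minus the shared range was 0.20. With PBS, that of the PBS-only minus the shared range was 0.28. Of 16 oxidative phosphorylation genes 3 were lower, with medians of -0.12 and -0.08. Hypoxia and glycolysis genes had a median of 0.41 within the shared range and -0.33 between the IgG-only and PBS-only ranges, which gave 0.11 pooled.

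Melanocyte genes had a median of 0.01 pooled and -0.04 within the shared range, the former changing sign when arrays were centred on their medians. Sox10, a neural crest factor, differed by 0.51 ± 0.24 (SE) and Trpm1, a melanocyte channel, by -0.38 ± 0.15 in the pooled comparison, and neither passed. Skeletal muscle genes had the largest negative median, -0.57 pooled and -1.77 within the shared range, with 0 of 14 at an unadjusted p under 0.05. Averaged over the list they were at 6.54, 8.65 and 10.02 in the PBS arrays of the shared range, at 5.47 to 5.48 in those of the PBS-only range, and from 5.23 over 5.53 to 10.79 with IgG. High arrays occurred in both arms. Hsd3b1, a steroid enzyme, chosen after its values were seen, had a difference of -1.42 within the shared range that came from PBS replicate 1, at 8.40, while the other 2 PBS arrays were at 4.10 and 4.34.

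**Figure D4:**
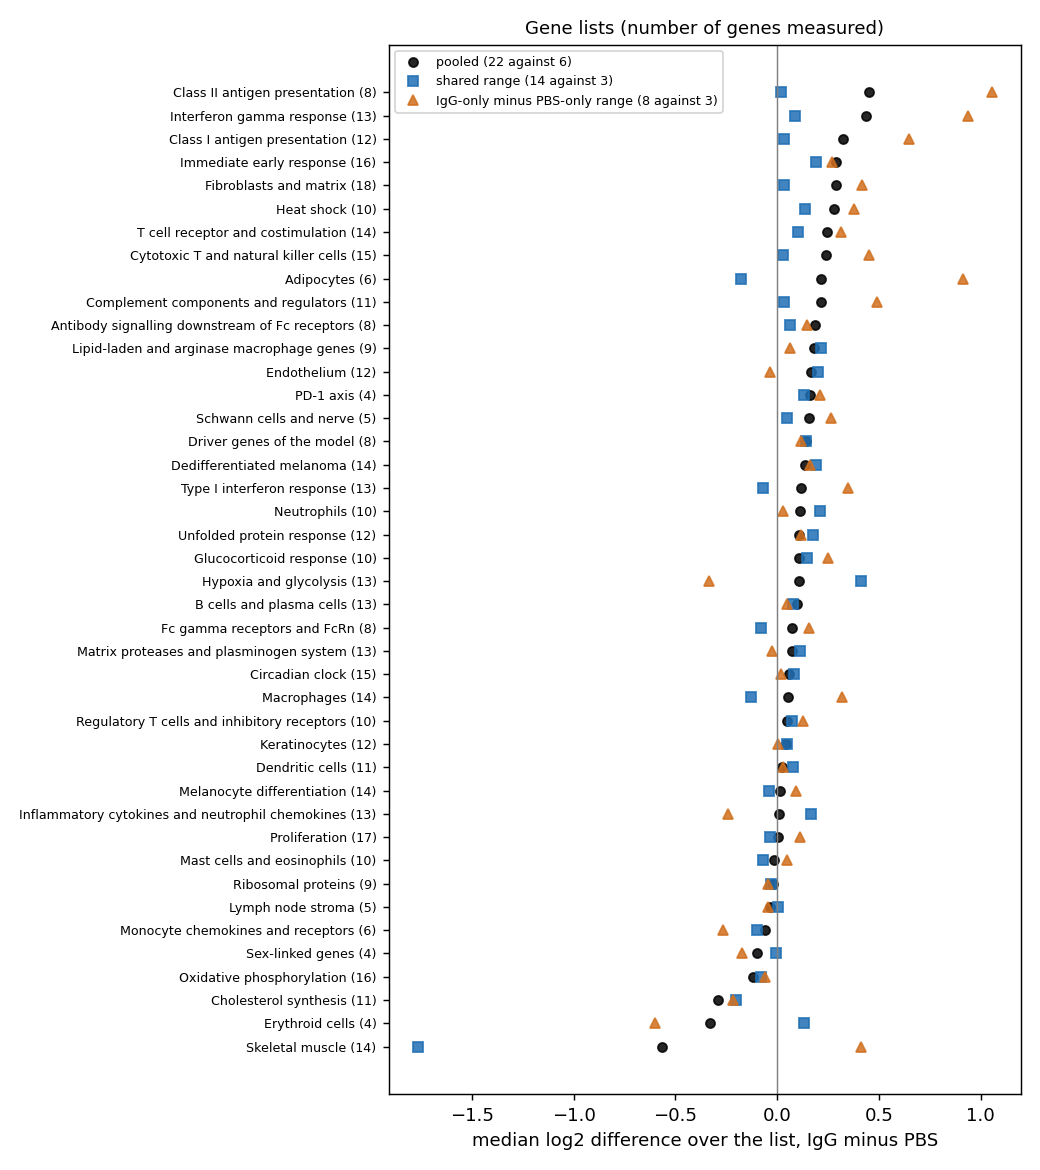
Median log2 difference over each of 42 gene lists, IgG minus PBS (horizontal axis), pooled (black circles), within the shared range (blue squares) and for IgG of the IgG-only range minus PBS of the PBS-only range (orange triangles). Interferon gamma and class I and class II lists lay at 0.32 to 0.45 pooled, at most 0.09 within the shared range and at 0.65 to 1.05 in the third comparison.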

How the data were processed

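RNA of subcutaneous melanoma allografts was hybridised to 90 mouse expression arrays of 45101 probe sets. The authors deposited log2 values, from 2.19 to 14.8, made with RMA per the submitters' processing notes, which also name limma; no versions are given there. The log2 values were used as deposited. Probe sets with 1 gene symbol in the platform annotation (34945) were kept, and of these the brightest on average across the arrays stood for each of 18193 genes; 932 probe sets with several symbols and 9160 without an entry were left out.

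Groups came from the treatment label and title. Differences were fitted with limma 3.58.1 in R 4.3.3 (lmFit, eBayes, two-sided), on the arrays compared only, with Benjamini-Hochberg adjustment over all genes and a threshold of 0.05. The number of arrays limits the precision. The PBS array with an actin difference over 2 was left out. The procedure was tested on simulated data.

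The text names the called genes, filled to 10 in each direction by the smallest pooled p without unnamed transcripts, up to 4 members of each list by the smallest pooled p, and the Fc receptor, PD-1 axis and driver genes; other members of the lists are named as examples. The members and lists were chosen with earlier results of these data known. Alternatives covered the scaling, dim genes, probe sets, spread estimates, array weights, title blocks and left-out arrays.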

Additional observations from a re-analysis of the deposited data

Results flagged for a closer look

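A value far from the rest of its group was found in 12 of 150 groups checked, PBS arrays and IgG arrays of the IgG-only range. In independent groups chance gives about 1 in 20. These groups share arrays, and some lists share genes, so the 12 cannot be set against that rate. In the PBS arrays, replicate 1 was highest for Osgin1 (7.89, the next 7.36) and for Ddr2 (8.86, the next 8.04). PBS replicate 4 was highest in the mean level of neutrophil genes (6.58) and unfolded protein response genes (10.5), and lowest for oxidative phosphorylation (12.2, the next 12.3). In the IgG arrays of the IgG-only range, replicate 15 was highest for Smarca2 (7.74), replicate 16 for keratinocyte genes (5.04), and replicate 17 for B cell and plasma cell genes (7.44) and skeletal muscle genes (9.07, the next 5.57). Replicate 20 was highest for inflammatory cytokines and neutrophil chemokines (6.07) and for matrix proteases (8.46), and replicate 22 was lowest for sex-linked genes (4.78).

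The difference of IgG of the IgG-only range minus PBS of the PBS-only range was tested against that within the shared range, with limma over all genes. It was lower by a value of -2.29 for Eif2s3y (adjusted p = 4.57e-07), -0.83 for Arfgef3 (adjusted p = 0.0145) and -0.81 for Dleu7 (adjusted p = 0.024).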

How the results depend on the processing

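The pooled count of 1 gene was 2 with the PBS array of high actin difference kept, 0 with quantile normalization, without dim genes or with the mean of probe sets, and 3 in a fit of the arrays of all groups within the actin limit. It was 0 with the title range as a fixed block and 5 for the IgG-only against the PBS-only range. With the actin difference or the Xist level as a covariate, both chosen after seeing the data, it was 0. Gm4876 was not among the 3 or the 5 genes. Its probe set averaged 5.684 over all arrays, below the median values of the 28 arrays, 5.77 to 5.86. It was itself left out of the fit without dim genes, so the 0 there is not a test of it. Leaving out 1 PBS array gave 0 to 2 genes, with 2 without replicate 4, and leaving out 1 IgG array gave 1 each time. Within the shared range, array weights, whose estimation stopped before converging, gave 286 of 18193 genes (137 higher) where the unweighted fit gave 0. Those genes included Gm4876 (-0.50, adjusted p = 0.00546 in limma), Nsun3, Cox20, Nr4a2 and the list members Icos, Acta2 and Lpl. The fit of all groups gave 1 within the shared range, Hsd3b1. Counted for the pooled comparison only, list members called were 1 in the fit of all groups and 2 for the IgG-only against the PBS-only range, against 0. PBS arrays of the PBS-only against the shared range gave 1 gene with quantile normalization, and 0 to 17 when 1 array was left out, 17 without replicate 2. Directions were compared only where a difference exceeded 1 SE. Eif2s3y reversed to 0.000141 with the fixed block, whose difference comes from the shared range alone. Cd274 reversed to -0.0412 with the Xist covariate. The cause was not tested. Of the other values of named genes, 1705 kept direction and side of the threshold, 10 lost the call and 14 gained one. The 10 lost calls were all of Gm4876, the only gene called in the main pooled and shared-range fits. No paired analysis was possible because the replicate numbers follow accession order only. The 3 PBS arrays within the shared range limit what could be detected.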
